A study of Mus musculus with 17 samples.

Results

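The nuclear genes for proteins of the mitochondrial ribosome were followed through 5 sorted fractions of mouse bone marrow progenitors. A gene was a member when a probe set with a single gene symbol named it Mrpl or Mrps followed by digits and at most 1 letter. This gave 76 genes of the 18193 on the array, 47 named Mrpl and 29 named Mrps, on 156 probe sets. For the 42 members with several probe sets, the probe set with the highest mean over the 17 arrays stood for the gene. Mrpl30 and Mrpl53 lay on probe sets with several symbols and are not members.

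The fractions were named from the surface gates in the array titles. MkP cells (Lin-Sca1-Kit+Itga2b+Slamf1+, 3 arrays) are megakaryocyte progenitors. The preCFUE cells (Lin-Sca1-Kit+Itga2b-FcgRlowSlamf1+Enghigh, 3 arrays) are early erythroid progenitors, and preMegE cells (Lin-Sca1-Kit+Itga2b-FcgRlowSlamf1+Englow, 5 arrays) can still form megakaryocytes and erythroid cells. CLP cells (Lin-Sca1lowKitlowIL7r+Flk2+, 3 arrays) are common lymphoid progenitors, and preGM cells (Lin-Sca1-Kit+Itga2b-FcgRlowSlamf1-Englow, 3 arrays) are early granulocyte and monocyte progenitors. All came from adult mice aged 10 to 14 weeks, with no genetic change or treatment in the labels. Whether replicate arrays stand for different mice, or for different sorts, is not stated, so every p below measures the spread between arrays and that spread may be technical.

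Mitochondria keep a ribosome of their own, which translates the few proteins encoded by mitochondrial DNA, all of them subunits of the respiratory chain and ATP synthase. Its RNAs come from mitochondrial DNA, while all of its proteins are encoded in the nucleus, made in the cytosol and imported. The small subunit reads the messenger RNA and the large subunit forms the peptide bond. Erythroid precursors rely on mitochondria for heme and iron-sulfur clusters, so mitochondrial genes are often studied in this lineage.

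Levels below are RMA intensities on a linear scale, which compare arrays for 1 probe set and not probe sets with each other. Changes are differences of log2(intensity + 16), which understate the change of dim genes. A gene passed when the Benjamini-Hochberg adjusted p over all 18193 genes in limma was under 0.05. All 76 members had a mean level above the 40th percentile of all genes, so the share of the 10916 genes above that percentile that passed is given beside the share of all genes.

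The sequences just before the transcription starts of a few members are shown because their genes vary most clearly among the fractions. Promoter windows (250 bases before to 50 after the start, RefSeq, GRCm38.p6) were matched by symbol for 67 of the 76 members, 1 window a gene. The 3 sequences printed are the 250 bases before the start, 5′ to 3′ on the strand of the gene, with matches to the searched motifs in capitals. Mrpl52 lies at chr14:54426659-54426908 on the plus strand, Mrpl36 at chr13:73330759-73331008 on the plus strand and Mrpl47 at chr3:32736756-32737005 on the minus strand.
Mrpl52: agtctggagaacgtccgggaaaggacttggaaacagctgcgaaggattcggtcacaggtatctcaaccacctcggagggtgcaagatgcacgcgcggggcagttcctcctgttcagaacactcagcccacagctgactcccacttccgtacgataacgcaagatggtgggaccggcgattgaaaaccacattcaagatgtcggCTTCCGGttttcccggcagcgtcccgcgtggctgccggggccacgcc
Mrpl36: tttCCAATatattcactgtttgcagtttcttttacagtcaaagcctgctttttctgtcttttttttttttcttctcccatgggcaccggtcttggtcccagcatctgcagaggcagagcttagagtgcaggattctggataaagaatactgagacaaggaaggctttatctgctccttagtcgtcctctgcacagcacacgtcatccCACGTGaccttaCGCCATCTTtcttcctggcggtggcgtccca
Mrpl47: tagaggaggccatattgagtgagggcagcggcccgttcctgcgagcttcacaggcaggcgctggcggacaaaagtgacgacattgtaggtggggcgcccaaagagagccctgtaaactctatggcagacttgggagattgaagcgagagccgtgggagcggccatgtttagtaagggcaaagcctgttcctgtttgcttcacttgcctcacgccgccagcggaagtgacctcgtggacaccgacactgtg

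The capitals in the Mrpl52 sequence mark CTTCCGG, the reverse complement of CCGGAAG, with its first base 47 bases before the start. In Mrpl36 they mark a CCAAT box 247 bases, an E-box 43 bases and a YY1 site 31 bases before the start, the last as the reverse complement of AAGATGGCG. The Mrpl47 sequence held none of the motifs searched. The motifs were looked for on both strands of the whole windows. CCGGAAG, a core read by ETS factors such as GABP, was in 24 of the 67 member windows (35.8%), against 9.12% of all 27025 windows and 18.9% of the 8830 windows of array genes above the 40th percentile. The NRF1 site, spelled GCGCA, then any base, then GCGC, was in 12 members (17.9%), against 4.78% of all windows and 10.9% of those of the array genes. AAGATGGCG, a site of YY1, was in 8 members (11.9%), against 1.49% and 3.47%. At least 1 of these motifs was in 38 member windows, a count not made for the other windows, so it has no share to be read against. CACGTG, the E-box read by MYC and USF proteins, was in 7.46% of member windows, against 7.24% of all windows and 10.4% of those of the array genes. The CCAAT box was in 38.8%, against 37.9% and 38.7%. The GC box GGGCGG was in 50.7%, against 35.9% and 64.2%, and TATAAA was in 5.97%, against 14.2% and 7.02%. These shares are descriptions of letters in a window and were not tested.

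Some members start near a gene on the other strand. A divergent neighbour whose start lay within 1000 bases was annotated for 23 of the 67 members (34.3%), against 8.48% of 17491 protein-coding genes and 13.4% of 8590 other protein-coding array genes above the 40th percentile. One such pair joins both ribosomal subunits: Mrpl46, of the large subunit, and Mrps11, of the small subunit, start 42 bases apart on opposite strands. The 41 bases between these starts, at chr7:78783090-78783130 and printed on the strand of Mrpl46, hold 1 GC box, in capitals as the reverse complement of GGGCGG.
Mrpl46-Mrps11: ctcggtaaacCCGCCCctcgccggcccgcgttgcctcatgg

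The fractions carried the markers of their gates. The summed intensity of each fraction's 5 markers was higher on every one of its own arrays than on any array of the other fractions, for all 5 lists. The MkP list (Itga2b, Pf4, Itgb3, Vwf and Gp9) summed to at least 11004 in MkP and to at most 673 elsewhere. The preMegE list (Slamf1, Gata1, Gata2, Klf1 and Mfsd2b) was the closest, with at least 5371 in preMegE and at most 5344 in preCFUE, where Klf1, which is also in the preCFUE list, and Gata1 were higher. Slamf1, part of the preCFUE gate, had a mean intensity of 20.4 in preCFUE, against 101 in preMegE. The 4 measured late erythroblast markers were at or near background in all fractions, with mean intensities of 8.93 to 14.5 in preCFUE. Neutrophil granule genes varied between arrays of 1 fraction, their sum running over 167 to 1496 in MkP, 256 to 438 in preCFUE, 145 to 1615 in preMegE, 132 to 270 in CLP and 275 to 1628 in preGM, and their part in the results was not tested.

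A pair of arrays stood apart. CLP replicate 2 correlated more closely with the preGM arrays (mean r = 0.961 over genes) than with the other CLP arrays (0.949). For the members, CLP replicate 2 and preGM replicate 3 lay away from their own groups. The median member, relative to its mean over all arrays, was at -0.99, -0.17 and -0.94 on the log2 scale in CLP replicates 1 to 3, and at 0.32, 0.25 and -0.38 in preGM replicates 1 to 3. Counts of members that passed in the comparisons are therefore also given without these arrays. The order of the fractions and the fraction means are given with all arrays only. For counts with arrays left out or with a covariate, the share of all genes that passed is not given. Those counts cannot tell whether a shift is particular to the members. The 3′ over 5′ log2 ratio of Gapdh control probe sets, a sign of RNA length, was 5.12, 3.00 and 4.08 in CLP and 2.72, 3.15 and 3.94 in preGM, so that within both fractions the array with the lowest ratio had the highest member median. The same held in the other fractions, for MkP replicate 2 (3.38), preCFUE replicate 1 (2.85) and preMegE replicate 1 (2.87). The remaining arrays did not always follow this order. The ratio was 4.09 in preCFUE replicate 3 and 3.53 in replicate 2, with member medians of 0.80 and 0.44. In preMegE it was 4.21 in replicate 5 and 3.42 in replicate 3, with medians of 0.13 and 0.06. Counts with this ratio as a covariate are given with the results.

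Mitochondrial ribosomal protein genes were highest in preCFUE and lowest in CLP. The mean log2 level was highest in preCFUE for 72 of the 76 members (94.7%), where 24.3% of all genes and 33.6% of genes above the 40th percentile were highest. It was lowest in CLP for 71 members (93.4%), against 28.8% of all genes and 42.4% of those above the 40th percentile. The order preCFUE, preGM, preMegE, MkP, CLP from high to low held for 29 members, and the order preCFUE, preMegE, preGM, MkP, CLP for 23. In bulk samples like these, fewer cells that express a gene and less RNA per cell cannot be told apart.

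By array, the median member stood at -0.23, -0.09 and -0.41 in MkP, at 0.90, 0.44 and 0.80 in preCFUE, and at 0.21, -0.08, 0.06, 0.19 and 0.13 in preMegE, again relative to each gene's mean. All preCFUE arrays lay above all other arrays, and the MkP arrays lay below all preMegE arrays, MkP replicate 2 by a small margin. CLP replicate 2 (-0.17) lay above MkP replicates 1 and 3 and above preGM replicate 3 (-0.38). The lowest place of CLP therefore did not hold for each of its arrays. The means were -0.24 ± 0.16 in MkP, 0.71 ± 0.24 in preCFUE, 0.10 ± 0.12 in preMegE, -0.70 ± 0.46 in CLP and 0.06 ± 0.38 in preGM (SD, n = 3, 3, 5, 3 and 3). In limma's moderated F test over the 5 fractions, 64 members (84.2%) passed. Of all genes 34.9% passed, and of genes above the 40th percentile 52.4%. With each of the 17 arrays left out in turn, 51 to 72 members passed.

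**Figure D1:**
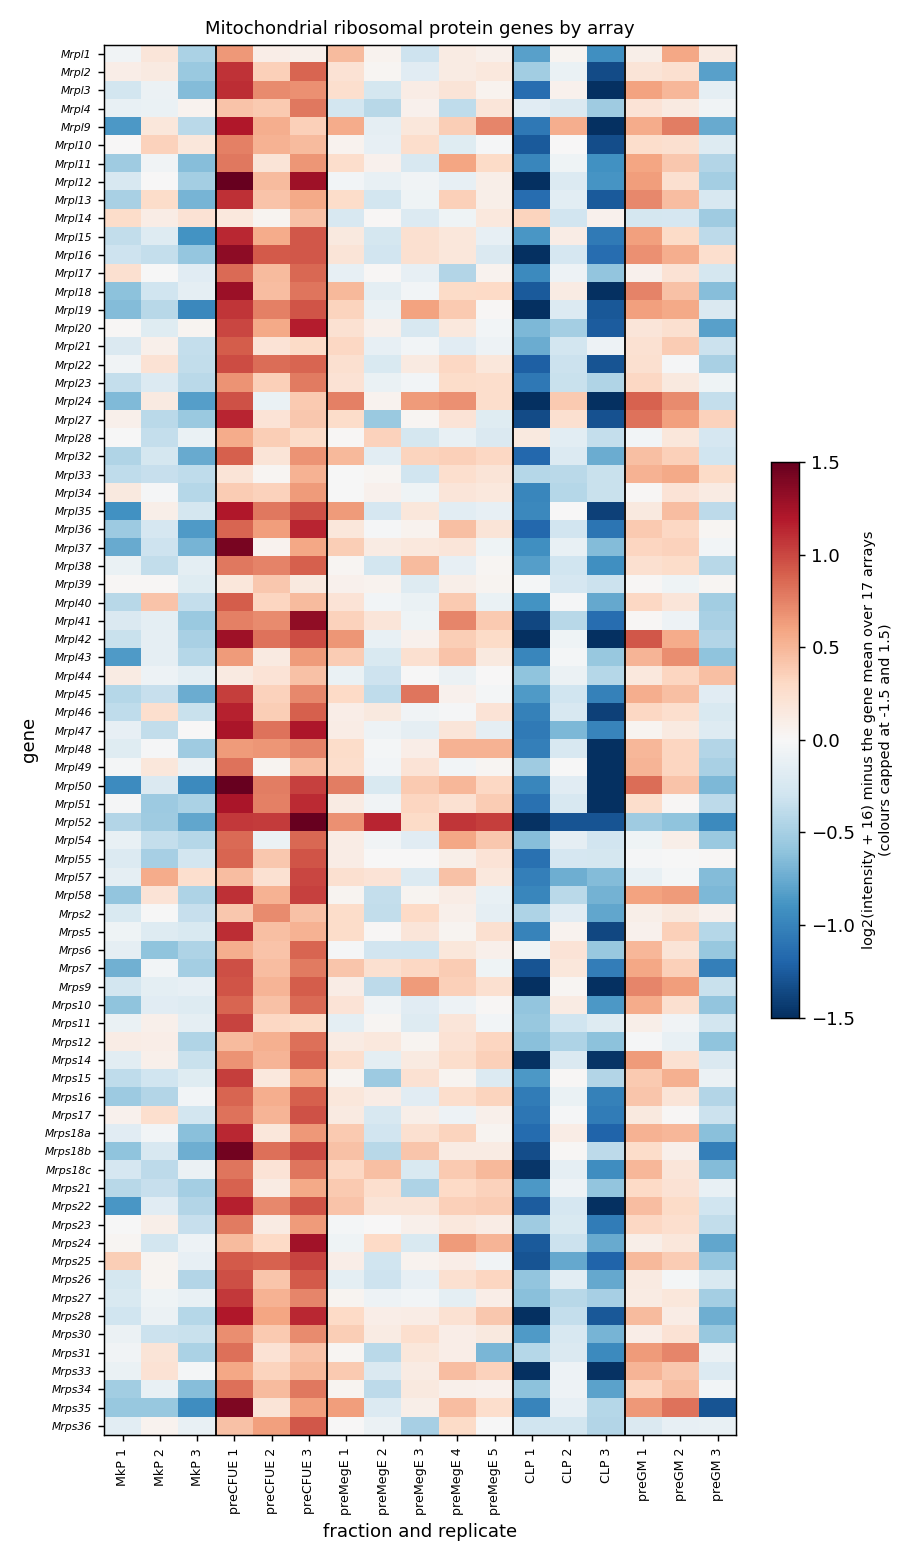
The heat map has 76 rows, 1 for each mitochondrial ribosomal protein gene, and 17 columns, 1 for each array, ordered MkP, preCFUE, preMegE, CLP, preGM. Colour gives log2(intensity + 16) minus the gene's mean over the arrays, capped at 1.5 either way; the preCFUE columns are red in nearly all rows, CLP replicates 1 and 3 are blue, CLP replicate 2 is pale, and the Mrpl14 row lacks this pattern.

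**Figure D2:**
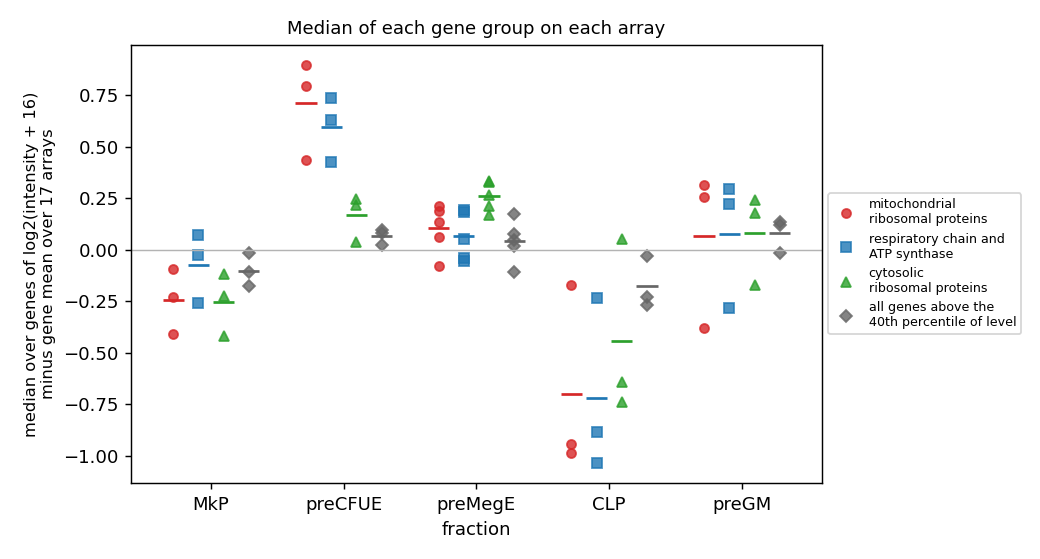
Each point is 1 array and gives the median over a gene group of log2(intensity + 16) minus the gene mean, with the fractions on the x axis and short lines at the fraction means. Mitochondrial ribosomal proteins (red) average 0.71 in preCFUE and -0.70 in CLP, respiratory chain genes (blue) 0.60 and -0.72, and cytosolic ribosomal proteins (green) 0.17 and -0.44.

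Members varied together across arrays. The median Pearson correlation between 2 members was 0.79 over the 17 arrays and 0.59 after each fraction's mean was removed, a description of genes that share the same arrays. Mrpl14, a protein at the face between the subunits, did not share the pattern: its correlation with the median of the other members was -0.01 over the 17 arrays. Its intensities were 61.7, 53.3 and 58.6 in MkP, 55.5, 50.2 and 71.0 in preCFUE, 38.5, 49.1, 39.8, 45.2 and 55.4 in preMegE, 65.1, 36.6 and 51.3 in CLP, and 37.2, 38.0 and 28.4 in preGM. It was the only member with its lowest mean in preGM. The next lowest correlations were those of Mrpl28 (0.55) and Mrpl39 (0.63), singled out after their values were seen.

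The members with the highest mean level on their probe sets were Mrpl39, Mrpl52, Mrpl22, Mrpl44 and Mrps14, and those with the lowest were Mrpl54, Mrpl14, Mrpl1, Mrpl45 and Mrps27. Among the bright ones, Mrpl39 varied little on the probe set used, with mean intensities of 1585 in MkP, 1946 in preCFUE, 1659.9 in preMegE, 1434 in CLP and 1634 in preGM. Its other, dimmer probe set changed by -0.52 ± 0.28 on the log2 scale in MkP over preMegE (SE; adjusted p = 0.297, limma on all probe sets). The probe set used changed by -0.07 there, so the small changes given for Mrpl39 hold for that probe set. Among the dim ones, Mrpl45 had mean intensities of 34.0 in MkP, 100.5 in preCFUE, 65.4 in preMegE, 27.8 in CLP and 71.1 in preGM. The 10 members with the smallest p in the F test were Mrpl52, Mrpl47, Mrpl36, Mrps25, Mrps27, Mrpl41, Mrps12, Mrpl22, Mrpl33 and Mrpl51, with adjusted p of 4.31e-07 for Mrpl52 and 6.64e-04 for Mrpl51 at the ends of that list.

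Mrpl52, a large-subunit protein found only in mitochondrial ribosomes, had the clearest differences. Its intensities were 931, 875 and 736 in MkP, 2675, 2657 and 3760.2 in preCFUE, 2059, 2831, 1550.0, 2696 and 2631 in preMegE, 443, 511 and 507 in CLP, and 875, 834 and 649 in preGM. Every preCFUE and preMegE array lay above every array of the other fractions. Its 3 brighter probe sets moved alike in MkP over preCFUE, by -1.81, -2.46 and -2.37 on the log2 scale, while the dimmest of its probe sets gave -0.09.

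Mrpl47, related to bacterial L29 at the exit of the peptide tunnel, separated preCFUE from all other fractions. It had intensities of 209, 173 and 229 in MkP, 555, 412 and 552 in preCFUE, 248, 216, 207, 260.2 and 207 in preMegE, 101, 137 and 107 in CLP, and 236, 252 and 198 in preGM. The preCFUE arrays were all above the rest and the CLP arrays all below it. Mrps25, a small-subunit protein with no bacterial relative, had 141, 109 and 95.5 in MkP, 214, 208 and 230.2 in preCFUE, 114, 83.4, 111, 115 and 101 in preMegE, 33.6, 55.5 and 36.9 in CLP, and 155, 142 and 65.3 in preGM. Its preCFUE arrays also lay above all others and its CLP arrays below.

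**Figure D3:**
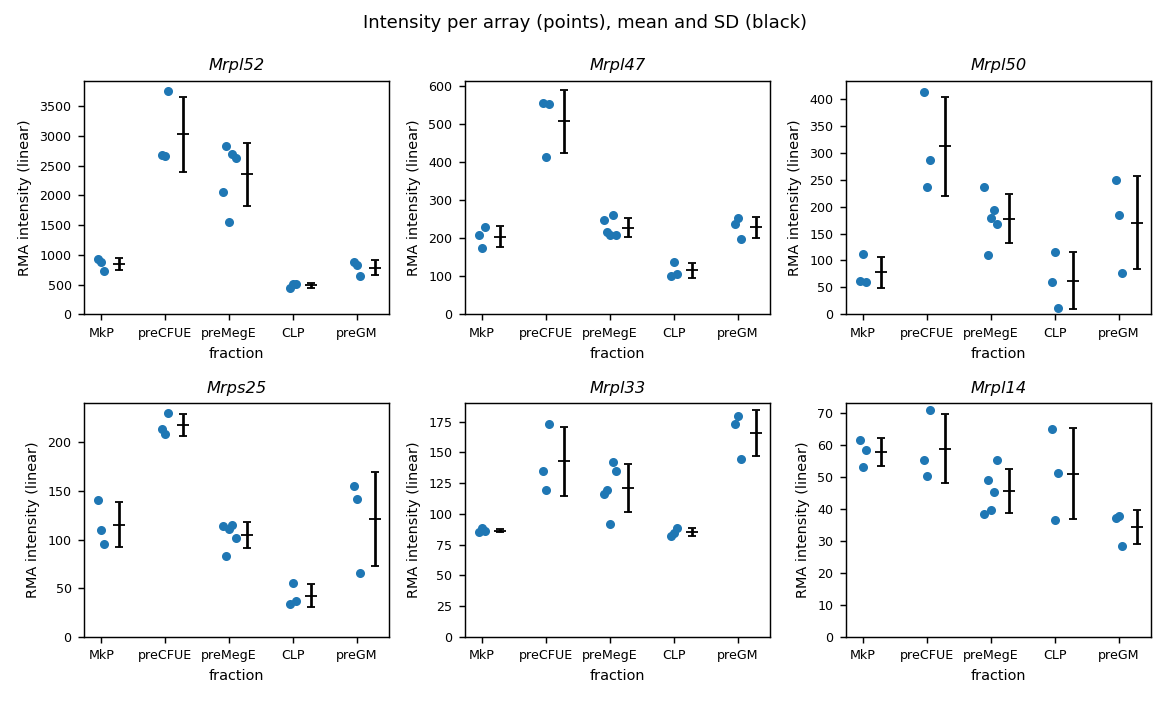
Linear RMA intensity of 6 members on each array (points), with the mean and SD of each fraction in black beside them and the fractions on the x axis. Mrpl52 averages 3031 in preCFUE and 2353 in preMegE, Mrpl47 and Mrps25 are highest in preCFUE, Mrpl33 is highest in preGM, and Mrpl14 lies between 28.4 and 71.0 throughout.

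The step from the bipotent preMegE fraction toward the erythroid branch was examined by setting preCFUE against preMegE. Of the 76 members, 17 rose and none fell, and 75 had a positive change, with a median change of 0.61 on the log2 scale (1.52-fold). Of all genes, 4.75% rose and 3.94% fell, and of genes above the 40th percentile 7.63% rose and 6.46% fell. All arrays of preCFUE lay above all arrays of preMegE for 46 members, where this held for 9.89% of all genes and 14.9% of those above the 40th percentile. At an unadjusted limma p under 0.05, 45 members were higher and 0 lower. Such a p, in either direction, was reached by 3354 of all 18193 genes and 3168 of the 10916 above the 40th percentile. The median of all genes was 0.01 and that of genes above the 40th percentile 0.03.

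Mrpl12, the stalk protein that brings translation factors to the ribosome and also binds the mitochondrial RNA polymerase, had the largest rise, 1.17 ± 0.31 (SE; adjusted p = 0.0305, limma). Its intensities were 676, 298 and 530.2 in preCFUE, against 203, 194, 202, 192 and 225 in preMegE. The groups did not overlap, and preCFUE replicate 2 was the lowest of its group. The call on Mrpl12 was lost under 7 of 31 alternatives. Mrpl47 rose by 1.09 ± 0.13 (adjusted p = 9.13e-05), and Mrpl16, the relative of bacterial L16, by 1.04 ± 0.29 (adjusted p = 0.0403; lost under 13 of 31 alternatives). Mrps25 rose by 0.96 ± 0.21 (adjusted p = 0.00877). The next in size among the members that passed were Mrpl20 (0.88), Mrpl17 (0.85), Mrps27 (0.79) and Mrpl38 (0.78). Mrps36, known also as a subunit of the oxoglutarate dehydrogenase complex, rose by 0.72 ± 0.14 (adjusted p = 0.00447). Mrpl52, already high in preMegE, differed by 0.38 ± 0.19 (adjusted p = 0.312), and the bright Mrpl39 and Mrpl44 by 0.23 and 0.36 without passing. Mrpl24 was the only member with a negative change, of -0.07.

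Mrpl17 rose on its brightest probe set, while its dimmer probe sets gave 0.14 and -0.01. The dimmer ones had means of 5.03 and 5.21 on the log2 scale, against 7.68 for the brightest. Changes that dim are understated, so they cannot tell whether the rise holds on other probe sets. The count of rises was 6 without preCFUE replicate 1, 5 without preCFUE replicate 3, 10 or 11 without preMegE replicate 1, 2, 3 or 5, 28 without CLP replicate 2, and 41 without CLP replicate 2 and preGM replicate 3 together, which enter only through the shared spread.

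Setting MkP against preMegE, the step to the megakaryocyte branch, 3 of 76 members fell and none rose, with a median change of -0.33 on the log2 scale (0.793-fold). Of all genes 6.37% fell and 3.98% rose, and of genes above the 40th percentile 10.4% fell and 5.14% rose, so the share of members that fell (3.95%) was below both. At an unadjusted limma p under 0.05, 19 members were lower and 0 higher. Such a p, in either direction, was reached by 4547 of all 18193 genes and 3751 of the 10916 above the 40th percentile. The members' share was close to that of all genes and below that of genes above the percentile. The changes were negative for 67 members, but the median member was at -0.07 after quantile normalization, and genes above the 40th percentile had a median of -0.13. All MkP arrays lay below all preMegE arrays for 16 members, where this held for 12.1% of all genes and 19.3% of those above the 40th percentile.

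The members that fell were Mrpl52, Mrpl19, a relative of bacterial L19, and Mrpl36, a relative of bacterial L36. Mrpl52 fell by 1.43 ± 0.19 on the log2 scale (SE, adjusted p = 1.46e-04, limma). Mrpl19 fell by 0.93 ± 0.27 (adjusted p = 0.0448), a call lost under 15 of 31 alternatives, each array left out in turn included. Mrpl36 fell by 0.72 ± 0.20 (adjusted p = 0.0327), a call lost under 8 of 30 alternatives. For Mrpl19 the intensities were 113, 135 and 87.6 in MkP, against 239, 172, 291, 249 and 189 in preMegE. For Mrpl36 they were 107, 135 and 83.6 in MkP, against 187, 161, 171, 230.0 and 191 in preMegE. Neither gene's groups overlapped. The bright members Mrpl39, Mrpl22 and Mrpl44 differed by -0.07, -0.19 and 0.07 and did not pass. Mrpl39 and Mrpl22 turned positive, to 0.17 and 0.05, after quantile normalization. The count of falls was 1 without MkP replicate 1 or 3 or preMegE replicate 1, 4 or 5, 6 without CLP replicate 1 or 2, 7 without preGM replicate 3, and 19 without CLP replicate 2 and preGM replicate 3 together.

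The branches were then set directly against each other. In MkP over preCFUE, 48 of the 76 members fell and none rose, all 76 changes were negative, and the median was -0.95 on the log2 scale (0.519-fold). Of all genes 10.7% fell and 5.51% rose, and of genes above the 40th percentile 17.3% fell and 7.63% rose. After quantile normalization 26 members fell, against 6.48% of all genes, while 7.17% of all genes rose. For 70 members every MkP array lay below every preCFUE array, where this held for 21.4% of all genes and 33.4% of those above the 40th percentile. At an unadjusted limma p under 0.05, 67 members were lower and 0 higher. Such a p, in either direction, was reached by 5214 of all 18193 genes and 4545 of the 10916 above the 40th percentile. The median of genes above the 40th percentile was -0.16. This comparison shares its preCFUE and MkP arrays with the previous ones, so its counts are not separate evidence.

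Mrpl50, a large-subunit protein found only in mitochondria, had intensities of 61.6, 112 and 60.7 in MkP, against 414, 236 and 287 in preCFUE, and fell by 1.81 ± 0.49 (SE; adjusted p = 0.0212, limma). Mrpl52 fell by 1.81 ± 0.21 (adjusted p = 3.19e-05). Mrpl19 fell by 1.60 ± 0.31 (adjusted p = 0.00255). Its intensities in preCFUE were 408, 324 and 373, all above those in MkP. Mrpl16 had 236, 228 and 194 in MkP, against 778, 577 and 581 in preCFUE, a fall of 1.48 ± 0.33 (adjusted p = 0.00692). Mrps22, a small-subunit protein whose human counterpart is a known disease gene, had 89.7, 156 and 127 in MkP, against 417, 302 and 356 in preCFUE. It fell by 1.43 ± 0.31 (adjusted p = 0.00627), as did Mrpl36 by 1.43 ± 0.22 (adjusted p = 5.20e-04). Mrps35 fell by 1.42 ± 0.46 (adjusted p = 0.0483), a call lost under 14 of 31 alternatives. Among the brightest members that did not pass, Mrpl39 differed by -0.29, Mrpl44 by -0.30 and Mrps14 by -0.83. Mrpl39 and Mrpl44 turned positive, to 0.10 and 0.12, after quantile normalization.

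The Mrps18 paralogs all descend from bacterial S18 and sit at different places: Mrps18c and Mrps18b in the small subunit and Mrps18a in the large subunit. Mrps18b fell most, by 1.62 ± 0.36 (SE; adjusted p = 0.00762, limma), with intensities of 124, 164 and 113 in MkP, against 567, 362 and 408 in preCFUE. Mrps18a had 135, 150.2 and 94.2 in MkP, against 358, 176 and 252 in preCFUE, a change of -0.93 ± 0.37 (adjusted p = 0.113). Mrps18c had 306, 276 and 343 in MkP, against 651, 424 and 649.6 in preCFUE, a change of -0.85 ± 0.33 (adjusted p = 0.0993). The groups did not overlap for any of the paralogs, and differences between the paralogs were not tested.

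Falls in MkP numbered 27 without MkP replicate 3, 25 without preCFUE replicate 1 and 27 without preCFUE replicate 3. Without CLP replicate 2 and preGM replicate 3 together 66 members fell. MkP had a mean 3′ over 5′ Gapdh log2 ratio of 3.85 ± 0.41 and preCFUE of 3.49 ± 0.62 (SD, n = 3 each), and with that ratio as a covariate 53 members fell.

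**Figure D4:**
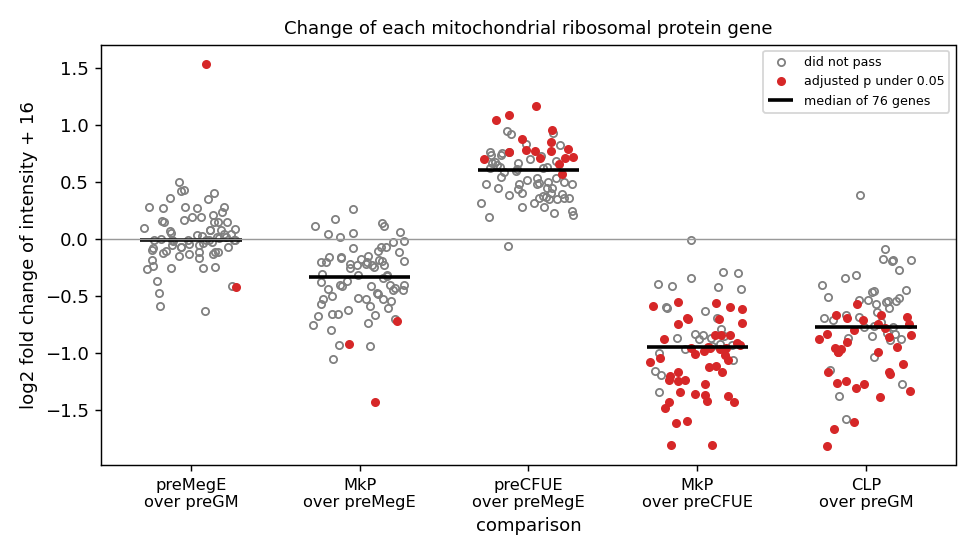
Each point is 1 of the 76 members, the y axis gives its log2 fold change and the x axis the comparison; red points passed at an adjusted p under 0.05 and black bars are medians. The medians are -0.00 in preMegE over preGM, -0.33 in MkP over preMegE, 0.61 in preCFUE over preMegE, -0.95 in MkP over preCFUE and -0.77 in CLP over preGM.

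On the lymphoid against the myeloid side, in CLP over preGM, 34 of 76 members fell and none rose, with 75 negative changes and a median of -0.77 on the log2 scale (0.585-fold). Of all genes 13.3% fell and 5.07% rose, and of genes above the 40th percentile 21.3% fell and 5.09% rose. After quantile normalization 13 members fell, against 6.68% of all genes, while 6.48% of all genes rose. At an unadjusted limma p under 0.05, 59 members were lower and 1 higher. Such a p, in either direction, was reached by 6509 of all 18193 genes and 5195 of the 10916 above the 40th percentile. The median of genes above the 40th percentile was itself -0.30. All CLP arrays lay below all preGM arrays for only 21 members, where this held for 16.1% of all genes and 24.7% of those above the 40th percentile.

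Mrpl42, a large-subunit protein found only in mitochondria, fell most and dropped by 1.82 ± 0.46 (SE; adjusted p = 0.0181, limma). Its intensities were 85.0, 386 and 70.2 in CLP, against 786, 601 and 293 in preGM, and CLP replicate 2 lay above preGM replicate 3. Mrpl16 fell by 1.67 ± 0.33 (adjusted p = 0.00458), with 56.3, 247 and 126 in CLP, against 489, 439.8 and 357 in preGM, with no overlap. Mrps9, the relative of bacterial S9, had 59.6, 224 and 35.0 in CLP, against 372, 346 and 169 in preGM. It fell by 1.61 ± 0.44 (adjusted p = 0.0255), though its groups overlapped. Mrps14, the relative of bacterial S14, had 258, 644 and 259.7 in CLP, against 1179, 883 and 645 in preGM, a fall of 1.28 ± 0.29 (adjusted p = 0.0102). Mrpl27 fell by 1.39, with no overlap. Mrps33 fell by 1.33, Mrpl19 by 1.31 and Mrps22 by 1.27, and the groups of each overlapped. Of the 34 members that fell, 17 had groups that did not overlap. The calls named here were lost under 1 (Mrpl16) to 8 (Mrps9) of the alternatives each. Among the brightest members that did not pass, Mrpl39 differed by -0.19, Mrpl11 by -0.84 and Mrpl57 by -0.54, and Mrpl39 turned to 0.20 after quantile normalization. Mrpl14 was the only member with a positive change, 0.39 ± 0.15 (adjusted p = 0.0846).

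The size of this count rested on single arrays. Falls numbered 8 without CLP replicate 1 or 3, 60 without CLP replicate 2, 7 without preGM replicate 1, 8 without preGM replicate 2, 55 without preGM replicate 3, and 69 without CLP replicate 2 and preGM replicate 3 together. CLP replicate 2 and preGM replicate 3 were singled out after the members' values were seen, and their member medians lay toward the other fraction. The larger counts without them follow from that choice and are no check of the falls. When only the 6 arrays of CLP and preGM were fitted 2 members fell, and with the Gapdh ratio as a covariate 14 fell.

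Between preMegE and preGM, the granulocyte-monocyte against the megakaryocyte-erythroid side, the members had a median change near 0. In preMegE over preGM 1 member rose and 1 fell, with a median of -0.00 on the log2 scale and 36 positive and 40 negative changes. Of all genes 2.81% rose and 5.88% fell, and of genes above the 40th percentile 4.48% rose and 8.71% fell, so both counts of members were below these shares. At an unadjusted limma p under 0.05, 3 members were higher and 3 lower. Such a p, in either direction, was reached by 2956 of all 18193 genes and 2623 of the 10916 above the 40th percentile. The members' share was below both. Mrpl52 rose by 1.54 ± 0.19 (SE; 2.91-fold; adjusted p = 5.00e-05, limma). Mrpl33, a relative of bacterial L33, had 116, 119, 91.5, 142 and 135 in preMegE, against 173, 180.0 and 145 in preGM, with no overlap. It fell by 0.42 ± 0.12 (adjusted p = 0.0495), a call close to the threshold that was lost under 20 of 30 alternatives. Mrpl39, Mrpl22 and Mrpl44 differed by 0.02, 0.21 and -0.41 and did not pass. Without preCFUE replicate 3 the count of falls was 2, and it was 0 without CLP replicate 3, preGM replicate 2, preMegE replicate 1, 2 or 3, MkP replicate 1, 2 or 3, or preCFUE replicate 1.

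Genes of both subunits had similar median changes. By the known structure, 49 members belong to the large subunit, Mrps18a and Mrps30 included, and 26 to the small subunit, with Mrps36 left out of both. In preCFUE over preMegE 10 of 49 large-subunit genes rose, with a median of 0.59, and 6 of 26 small-subunit genes, with a median of 0.61. In MkP over preCFUE 30 large-subunit genes fell, with a median of -0.96, and 17 small-subunit genes, with a median of -0.89. In CLP over preGM 23 large-subunit genes fell, with a median of -0.84, and 11 small-subunit genes, with a median of -0.68. Members with a bacterial relative and members found only in mitochondria both had a median of -0.95 in MkP over preCFUE, with 30 of 47 and 17 of 28 falling. The differences between these classes were not tested.

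Probe sets of 1 gene did not always move together. Of the 42 members with several probe sets, all of them had the same sign for 26 in MkP over preCFUE, 29 in preCFUE over preMegE and 17 in each other comparison. For Mrpl41, a large-subunit protein found only in mitochondria, probe sets passed in opposite directions in CLP over preGM. In a fit of all probe sets its middle probe set gave -0.90 ± 0.24 (SE; adjusted p = 0.0273, limma) and its dimmest 0.33 ± 0.09 (adjusted p = 0.0268), while the brightest gave -0.80 (adjusted p = 0.0548). The probe sets used for 12 members, Mrpl19, Mrpl38, Mrpl44 and Mrpl11 among them, are of the kinds that can bind transcripts of other genes, so their values are less certain.

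Other proteins of the mitochondrial ribosome that carry different names fell with the members in MkP over preCFUE. All 4 of the measured genes passed: Gadd45gip1 fell by 1.48, Dap3 by 1.36, Ptcd3 by 1.30 and Chchd1 by 1.16 on the log2 scale. In preCFUE over preMegE none of the 4 passed in limma (median 0.71), where 3 had an unadjusted p under 0.05. In MkP over preMegE 1 of them fell, and in CLP over preGM 2 fell. Of 12 measured mitochondrial translation factors, 4 rose in preCFUE over preMegE and 6 fell in MkP over preCFUE. Gfm1, the elongation factor that moves the ribosome along the messenger, changed most in both, by 1.18 ± 0.18 (SE; adjusted p = 5.84e-04, limma) and -1.27 ± 0.20 (adjusted p = 5.20e-04). Tufm, which delivers transfer RNAs to the ribosome, rose by 0.75 in preCFUE over preMegE and fell by 0.76 in MkP over preCFUE.

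Of 16 measured mitochondrial tRNA synthetases, which charge transfer RNAs for this ribosome, 4 rose in preCFUE over preMegE, led by Tars2 (0.99), and 7 fell in MkP over preCFUE, led by Iars2 (-1.57). Of 23 ribosome assembly factors 1 rose in preCFUE over preMegE (4.35%, near the 4.75% of all genes), Fastkd2 by 0.95, and 10 fell in MkP over preCFUE. Eral1, which binds the small ribosomal RNA during assembly, rose by 0.87 ± 0.17 in preMegE over preGM (SE; adjusted p = 0.00361, limma) and fell by 0.81 ± 0.17 in MkP over preMegE (adjusted p = 0.00691).

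Of 12 genes for the upkeep and transcription of mitochondrial DNA, 8 fell in MkP over preCFUE, with a median of -1.04. They included Lrpprc, which stabilizes mitochondrial messengers, with a fall of 1.70, and its partner Slirp, with a fall of 1.13. Slirp rose by 1.02 and Polrmt, the mitochondrial RNA polymerase, by 0.50 in preCFUE over preMegE. Of 15 import and mitochondrial mass genes, 4 rose in preCFUE over preMegE, Phb2, Cs, Timm44 and Tomm70a, and 8 fell in MkP over preCFUE.

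Of 9 regulators of mitochondrial biogenesis, the genes for NRF1, the GABP subunits and YY1 among them, none passed in preCFUE over preMegE in limma and 1 had an unadjusted p under 0.05. In MkP over preMegE, Myc fell by 1.43 ± 0.24 (SE; adjusted p = 0.00132, limma) and Pprc1, a coactivator of the PGC-1 family, by 0.69 ± 0.18 (adjusted p = 0.0225). In MkP over preCFUE they fell by 1.45 and 1.16, and no other gene of the list passed.

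Respiratory chain and ATP synthase genes, whose products join those made by this ribosome, had medians of the same sign as the members in these comparisons. Of 79, 24 rose in preCFUE over preMegE (median 0.58), 34 fell in MkP over preCFUE (median -0.71) and 42 fell and 2 rose in CLP over preGM (median -0.79). In MkP over preMegE 4 fell and 3 rose (median -0.18). These shares, 5.06% and 3.80%, were below the 6.37% and 3.98% of all genes and the 10.4% and 5.14% of genes above the 40th percentile. The cytosolic ribosomal protein genes, whose products form the ribosome outside mitochondria, gave other counts. Of 42, none passed in preCFUE over preMegE in limma, where 3 had an unadjusted p under 0.05 and the median was -0.07. In MkP over preMegE 11 fell (median -0.52), or 26.2%, against 6.37% of all genes and 10.4% of those above the 40th percentile. In CLP over preGM 11 fell and 1 rose (median -0.52), with falls of 26.2%, against 13.3% and 21.3%. In MkP over preCFUE 4 fell (median -0.44), or 9.52%, below the 10.7% of all genes and the 17.3% of those above the 40th percentile. The differences between these lists and the members were not tested.

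Cell cycle genes moved in several of the same comparisons, but not always in the direction of the members. Of 19 S phase genes 10 rose in preCFUE over preMegE and 5 fell in MkP over preCFUE. In MkP over preMegE 4 of the S phase genes rose and none fell (median 0.33), where the median member was at -0.33. In preMegE over preGM 7 of them fell (median -0.57), where the median member was at -0.00. Of 18 measured G2 and M phase genes 16 rose in preCFUE over preMegE and 14 rose in MkP over preMegE, where no member rose, and none passed in MkP over preCFUE (1 at an unadjusted limma p under 0.05), where 48 members fell. In CLP over preGM, where 34 members fell, 9 of the G2 and M phase genes fell and none rose (median -0.70), and 6 of the S phase genes fell (median -0.49). Their part in the members' changes was not tested.

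Among divergent neighbours, Mrpl46 fell by 0.96 (adjusted p = 0.0268, limma) and Mrps11 by 0.59 (adjusted p = 0.0325) in MkP over preCFUE. Of the 21 measured neighbours that are not members, 5 fell (23.8%, against 10.7% of all genes and 17.3% of those above the 40th percentile) and 1 rose, with a median of -0.35. Whether neighbours differ from other genes was not tested. Ndufb5, a subunit of complex I that starts 308 bases from Mrpl47 on the other strand, fell by 0.98 ± 0.26 (SE; adjusted p = 0.0194). Twnk, the helicase of mitochondrial DNA, which starts 116 bases from Mrpl43, fell by 0.81 ± 0.24 (adjusted p = 0.0335). Klc4, a kinesin light chain opposite Mrpl2, rose by 0.64 ± 0.20 (adjusted p = 0.0462).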

How the data were processed

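The deposited values are RMA intensities of 17 one-colour Affymetrix 3′ arrays. Per the labels and the design text, the authors sorted cells into lysis buffer, amplified the RNA with a small-sample protocol, scaled the scans and extracted expression values with RMA. The table holds linear intensity values (4.33 to 24739) for 45101 probe sets, of which 34945 have 1 gene symbol, 932 several and 9160 none beside 64 controls. The number of arrays limits the precision.

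Intensities were taken as log2(intensity + 16), with 1 probe set a gene (the highest mean over all arrays), which gave 18193 genes. No further normalization was applied. A limma model (version 3.58.1, R 4.3.3) with a term for each fraction was fitted to all arrays, with 12 residual and 2.01 prior degrees of freedom. It gave 5 contrasts and a moderated F test, with p adjusted by Benjamini-Hochberg over all genes and a threshold of 0.05. The script was tested on simulated data. Fractions and replicate numbers came from the array titles. The free-text descriptions name another gate for every array and were not used. Whether same-numbered arrays of different fractions belong together is not stated, and the main fit did not pair them.

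The members and gene lists were chosen with earlier results of these data known, and the subunit classes from general knowledge. Named for levels were the 5 members with the highest and lowest means and the 10 with the smallest F test p. Named for each comparison were up to 8 with the largest rise and fall among those that passed, and the 3 brightest that did not. The Mrps18 paralogs, Mrpl12, Mrps36 and members with probe sets called in opposite directions were named wherever they bore on a result. Alternatives covered the pseudocount (1 and 64), array normalization, filters on level and variation (SD over mean above 0.5), the choice of probe set, array weights, the arrays fitted, the Gapdh ratio as a covariate, the replicate block and each array left out.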

Additional observations from a re-analysis of the deposited data

Results flagged for a closer look

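In preMegE, replicate 3 had a Mrpl39 intensity of 1436, while the other 4 arrays lay between 1686 and 1747. On the log2(intensity + 16) scale the gap to the nearest array was 0.819 of the whole range, above the Dixon limit of 0.71 for 5 arrays. It was the only one of 33 members checked in this way, and chance alone gives such a gap in about 1 in 20 groups.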

How the results depend on the processing

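Across all alternatives run, no member rose in MkP over preMegE or MkP over preCFUE and none fell in preCFUE over preMegE. The counts themselves moved. Except for quantile normalization, the share of all genes that passed under each alternative is not given. A larger or smaller count below may therefore hold for all genes and is not a result about the members. In preCFUE over preMegE the 17 rises became 44 with array weights, 37 with only the arrays compared, 29 with the Gapdh ratio as a covariate, 29 with centring on genes above the 40th percentile, 41 without CLP replicate 2 and preGM replicate 3, and 5 with the SD over mean filter, which keeps 13 members. In MkP over preCFUE the 48 falls became 26 with quantile normalization, 31 with unique probe sets only and 13, all members tested, with the SD over mean filter. In CLP over preGM the 34 falls became 13 with quantile normalization, 11 with the SD over mean filter, 67 with array weights, 2 with only the arrays compared, 14 with the covariate, 22 with the centring and 69 without both arrays. Quantile normalization, the centring and leaving out both arrays each gave 1 rise there. In MkP over preMegE the 3 falls became 5 with a pseudocount of 1, 6 with the level filter, 21 with array weights, 16 with only the arrays compared, 5 with the covariate and 19 without both arrays. In preMegE over preGM array weights gave 3 rises and 8 falls. The 1 fall became 2 with a pseudocount of 64 or without both arrays. It became 0 with a pseudocount of 1, quantile normalization, the level filter, the SD over mean filter, the mean over probe sets, unique probe sets, the covariate or the centring. The F test passed 13 members, all tested, with the SD over mean filter. That filter keeps members because they vary among the arrays, so the counts it gives are no check of the calls. The centring and the removal of both arrays were chosen after seeing the data.

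Leaving out each of the 17 arrays in turn gave 5 to 28 rises in preCFUE over preMegE, 25 to 60 falls in MkP over preCFUE, 7 to 60 falls and 0 to 1 rises in CLP over preGM, 1 to 7 falls in MkP over preMegE and 0 to 2 falls in preMegE over preGM. With replicate number as a block, the counts were 5 rises in preCFUE over preMegE, 36 falls in MkP over preCFUE, 18 falls in CLP over preGM and 1 fall in MkP over preMegE. Whether the numbers pair the arrays is not stated in the labels. Of 30 same-numbered pairs, 11 had deviations correlated above 0.1, over a range of -0.543 to 0.508. Differently numbered pairs were not examined, so these values cannot tell whether the arrays are paired.

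Of 29 calls on named members, 10 kept their direction and passed under every alternative that gave them a value. These were Mrpl52 in 3 comparisons, Mrpl47 and Mrps27 in preCFUE over preMegE, and Mrpl16, Mrpl19, Mrpl36, Mrps18b and Mrps22 in MkP over preCFUE. The other 19 were lost under 1 to 20 of the alternatives each. The 1 call that turned was Mrpl17 in preCFUE over preMegE, at -0.0071 with unique probe sets. That value came from a dim probe set, with a mean of 5.21 on the log2 scale, against 7.68 for the probe set used. Changes of dim probe sets are understated on this scale, so the value cannot tell whether the rise reversed. The other turns were of changes that had not passed. Mrpl39 in preMegE over preGM was at -0.0104 with unique probe sets and -0.0152 with the replicate block, and between -0.0108 (without preGM replicate 2) and 0.0700 over the arrays left out in turn, with -5.68e-05 without preMegE replicate 4. Quantile normalization gave Mrpl39 0.17 in MkP over preMegE, 0.10 in MkP over preCFUE and 0.20 in CLP over preGM, Mrpl22 0.0498 in MkP over preMegE and Mrpl44 0.12 in MkP over preCFUE. The centring gave Mrpl39 0.16 in MkP over preMegE and 0.25 in CLP over preGM, and Mrpl22 0.0327 in MkP over preMegE. Mrpl44 in MkP over preMegE was at -0.0563 with the mean over probe sets, -0.40 with unique probe sets and -0.0150 without MkP replicate 1. Other than in the alternatives that drop arrays or genes, the cause was not tested.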
